A study of Arabidopsis thaliana with 6 samples.

Results

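Cytosolic ribosomal proteins were examined in the ceh1 mutant of Arabidopsis thaliana and in the line it derives from. The genes were those that met a rule on names: nuclear genes that TAIR names as proteins of the cytosolic 40S or 60S subunit, the acidic stalk proteins P0 to P3 included, with plastid and mitochondrial ribosomal proteins left out. Of 232 genes so named, 132 had a probe set of their own, out of 13286 genes with such a probe set on the array. They comprised 48 genes of the small 40S subunit and 84 of the large 60S subunit. A filter on dim probe sets left 119 of them to be tested, 43 for 40S proteins and 76 for 60S proteins, and the other 13 are described further on.

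The 3 ceh1 arrays and the 3 parent arrays each measured total RNA of whole plants at 2 weeks of age, and the labels call them biological replicates. All plants grew on reduced-strength (1/2) Murashige and Skoog medium at 23 °C in short days of 8 h light and 16 h dark, after 2 days at 4 °C. About 20 plants were collected, without a statement of whether that number applies to each replicate. The labels give the parent line as the wild type. In ceh1 the gene for HDS is known to be mutated, an enzyme of the plastid methylerythritol phosphate pathway, and the mutant is known from a screen of plants that carried a luciferase reporter, a transgene that the labels used here do not mention. No probe set was paired with HDS alone, so the mutated gene could not be checked in these arrays.

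The ribosome translates messenger RNA in the cytosol. Its small subunit decodes the message, and its large subunit joins amino acids and passes the growing chain out through a tunnel, while a flexible stalk on the large subunit recruits elongation factors. Plants keep several genes for almost every ribosomal protein, and in leaves and seedlings mutants of single genes are known for pointed leaves and slow growth. Ribosomal protein transcripts are known to be most abundant in dividing and growing tissue.

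No cytosolic ribosomal protein gene passed the test in either direction. With limma and Benjamini-Hochberg adjustment over 15922 probe sets at a threshold of 0.05, 0 of 119 genes were called, while 3.77% of all probe sets were called, 2.62% higher and 1.15% lower in ceh1. At an unadjusted p under 0.05, 6 of the 119 were higher in ceh1 and 0 were lower, against 9.41% and 11.5% of all probe sets. The smallest adjusted p was 0.178, for AT3G02190, a gene for L39. The differences were small. They ran between -0.37 and 0.43 (ceh1 minus parent, log2 signal), whereas the smallest difference among the 600 probe sets called was 0.66.

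The list spanned a narrow range of differences. Its middle 50% fell between 0.03 and 0.23, against -0.33 and 0.24 for all probe sets tested. The ribosomal protein probe sets were also far brighter, with a median log2 signal of 9.95 against 6.76 over all probe sets, and the part of brightness in the narrower range was not tested. Their median difference was 0.14, a fold of 1.10, and that of all probe sets was -0.03. In 93 of the 119 genes (78.2%) the ceh1 mean was the higher one, against 46.7% of all probe sets. The 95% interval of the difference lay within 2-fold in either direction for 118 of 119 genes, the exception being the dim L30 gene AT1G36240 with a lower bound of -1.02, and the median interval reached 0.42 to either side of the estimate. Within a genotype the arrays spread by a median SD of 0.20 for these genes and 0.29 for all probe sets.

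The position of the whole list differed between single arrays. The median over the 119 genes of an array's log2 signal minus the gene's mean over 6 arrays was 0.13, -0.06 and 0.14 in ceh1 arrays 1 to 3, against 0.05, -0.03 and -0.25 in parent arrays 1 to 3. The genotypes overlapped: ceh1 array 2 lay below parent arrays 1 and 2, and parent array 3 lay far below all others. Parent array 3 was the lowest of 6 for 78 of the 119 genes (65.5%), against 18.8% of all probe sets. Among the ceh1 arrays, array 2 was the lowest for 69 genes (58%), against 35.4% of all probe sets. All 6 arrays had medians between -0.03 and 0.04 over all tested probe sets, but quantile normalization brings the arrays to a common distribution. Without normalization these medians were -0.144, 0.248 and 0.225 in ceh1, against 0.218, -0.1 and -0.399 in the parent line, with parent array 3 lowest.

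**Figure D1:**
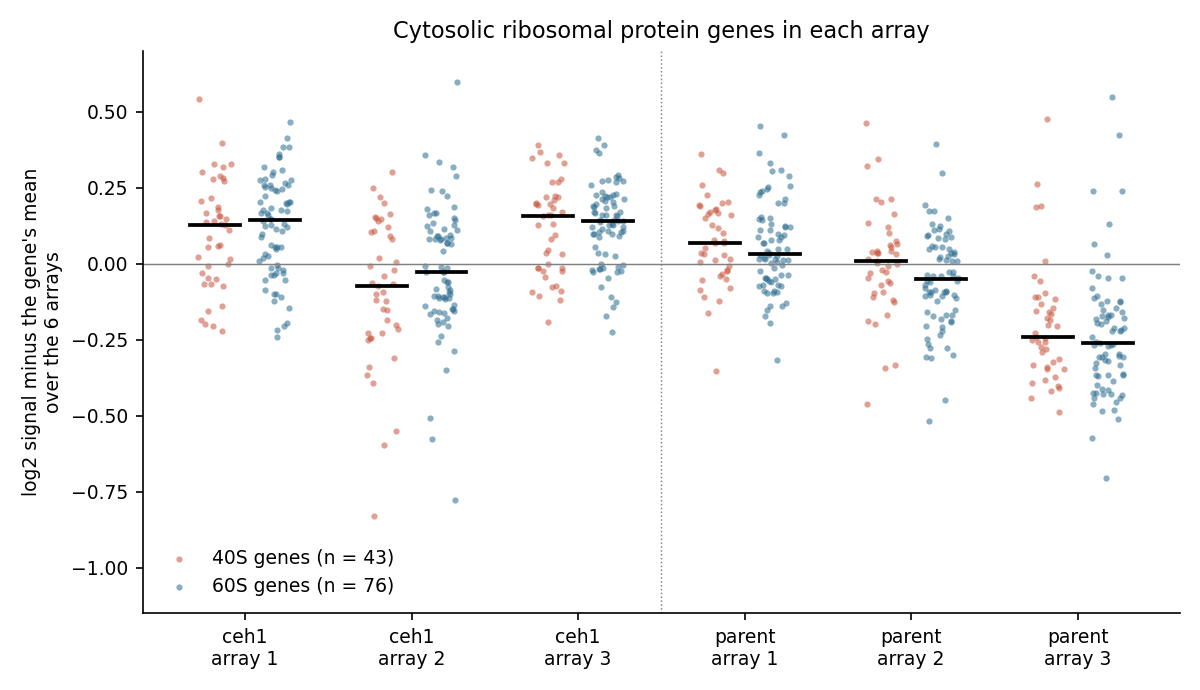
Log2 signal of each ribosomal protein gene minus that gene's mean over the 6 arrays (vertical axis), by array (horizontal axis), for 43 genes of the 40S and 76 of the 60S subunit, with the median of each as a bar. The clouds of parent array 3 sit lowest, with medians of -0.24 and -0.26, and those of ceh1 array 2 lie below the other ceh1 arrays.

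The median difference was 0.06 without parent array 3 and 0.19 without ceh1 array 2. It also depended on how the arrays were brought to a common level. After scaling each array to its median, which left the intensities otherwise unaltered, the median difference was 0.02 and 67 of 119 genes were above 0. Without normalization it was 0.29, where the median of all probe sets was itself 0.21. Relative to the median of all probe sets, the list stood 0.17 higher after quantile normalization, 0.08 higher after median scaling and 0.08 higher without normalization.

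Several measures also differed between arrays. The trimmed mean of the deposited intensities was 130, 175.7 and 172.9 in ceh1, against 171.4, 135.4 and 109.8 in the parent line. It was highest in ceh1 array 2 and lowest in parent array 3. The control probe set for 25S ribosomal RNA read 1343, 4598 and 1132 in ceh1, against 416.9, 985.4 and 293.7 in the parent line. It too was highest in ceh1 array 2 and lowest in parent array 3. These arrays, both low for the list, thus lay at opposite ends of both measures. The genotypes did not overlap in the 25S reading, with an exact two-sided permutation p of 0.1, the smallest that 3 arrays against 3 allow. The ratio of the 3' to the 5' actin probe set was 16.17, 17.28 and 17.36 in ceh1 and 19.69, 22.52 and 20.02 in the parent line, also with an exact p of 0.1. For GAPDH the same kind of ratio was 1.375, 1.769 and 1.454 in ceh1, highest in array 2. In the parent line it was 1.374, 1.68 and 1.481, with an exact permutation p of 0.9.

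Markers of other tissues were few. Of 9 root markers, 4 had a probe set, and their summed intensity was 1239 to 1900 in ceh1 and 326.3 to 975.6 in the parent line. PYK10, a root beta-glucosidase, carried most of it. Its log2 signal was 10.46, 10.62 and 10.50 in ceh1, against 9.49, 9.83 and 8.62 in the parent line (adjusted p of 0.0733, limma), again lowest in parent array 3. The root hair genes EXPA7 and EXPA18 stayed at or below an intensity of 11.99 on every array, and SP1L4 ran the other way, with a difference of -1.27 (adjusted p of 0.208). Of 15 genes of dividing cells only PRL had a probe set, with an intensity of 73 to 109.9 in ceh1 and 75.19 to 111.4 in the parent line. The evening gene GI had log2 signals of 7.66, 8.98 and 8.60 in ceh1, against 7.52, 7.49 and 9.56 in the parent line, so that ceh1 arrays 2 and 3 and parent array 3 were high. The part of array level, RNA quality, tissue make-up and time of day in the ribosomal protein values was not tested, and in RNA of whole plants fewer cells of a type and less RNA per cell cannot be told apart.

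The 40S genes had a median difference of 0.09 and the 60S genes one of 0.18, and 33 of 43 and 60 of 76 genes lay above 0. The 3 ceh1 arrays all exceeded the 3 parent arrays in 20 of the 119 genes (16.8%), against 12.4% of all probe sets. Other scalings turned this round: the count was 5 of 119 (4.2%), against 11.1% of all probe sets, after median scaling, and 2 of 118 (1.69%), against 12.8%, without normalization. Those 2 were AT2G19740 for L31 and AT3G44590 for P2, neither of them among the 20. After quantile normalization the 20 were 2 of 43 genes for 40S proteins (4.65%) and 18 of 76 for 60S proteins (23.7%), and the 2 shares were not tested against each other. The opposite separation was seen in 1 of the 40S genes and 0 of the 60S genes, against 15.1% of all probe sets. Within each array, the 40S median minus the 60S median of the centred values was -0.015, -0.047 and 0.016 in ceh1, against 0.037, 0.059 and 0.022 in the parent line. Every ceh1 array was below every parent array, though ceh1 array 3 and parent array 3 were closer than the within-genotype SD of 0.026, and no exact permutation p under 0.1 can be had from 3 arrays against 3. The contrast shrank with the scaling: the 40S median minus the 60S median of the differences was -0.09 after quantile normalization, -0.02 after median scaling and -0.01 without normalization.

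**Figure D2:**
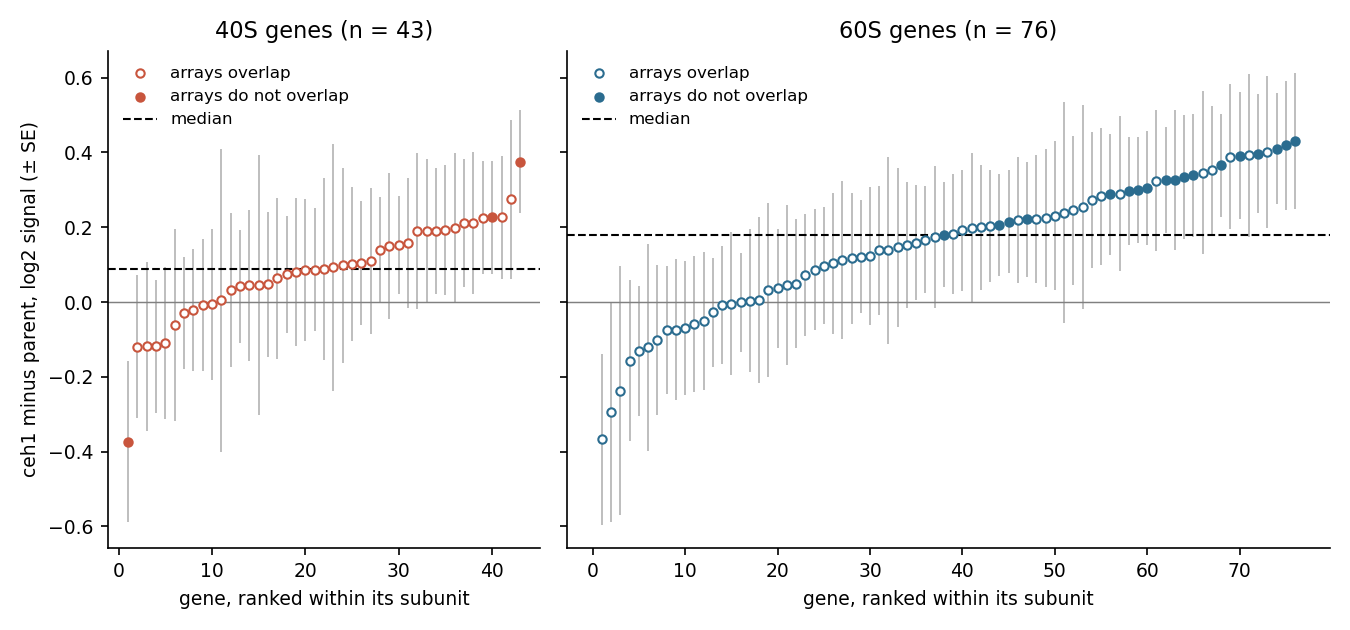
Difference between ceh1 and parent means (log2 signal, vertical axis) of each 40S gene (left) and 60S gene (right), ranked, with the standard error of the limma fit as a line; filled points mark genes whose 3 ceh1 arrays do not overlap the 3 parent arrays. Most points lie between 0 and 0.43, with medians of 0.09 and 0.18 as dashed lines, and filled points above 0 number 2 of 43 in the 40S panel and 18 of 76 in the 60S panel.

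Of the 18 genes for 60S proteins with separate arrays after quantile normalization, 7 code for proteins around the peptide tunnel. This grouping, which was made after the values were seen, took L4, L17, L19, L23a, L26, L31, L35 and L39, proteins that line the tunnel or ring its opening. It had 16 tested genes in 7 families with a median difference of 0.24. The arrays were separate in 7 of the 16, against 23.7% of all 60S genes and 12.4% of all probe sets. Above 0 lay 14, against 78.9% of all 60S genes and 46.7% of all probe sets. The 60S shares include these 16 genes. No test of enrichment was run. The median was 0.17 without parent array 3 and 0.12 after median scaling, where that of all probe sets was -0.06. Without normalization the arrays of all 7 genes overlapped, and those of another of the 16, the L31 gene AT2G19740, were separate. After median scaling the arrays were separate in 5 of all 119 genes of the list (4.2%, against 11.1% of all probe sets).

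L39 is a short protein in the tunnel wall. Its gene AT3G02190 had log2 signals of 7.55, 7.71 and 7.61 in ceh1, against 7.22, 7.20 and 7.22 in the parent line. The parent arrays were nearly identical, the ceh1 arrays all lay above them, and parent array 3 was not apart from the other parent arrays. The difference was 0.41 ± 0.15 (SE, n = 3 each; adjusted p of 0.178, limma) and lay between 0.37 and 0.67 over all 19 alternative settings.

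L26 sits beside the tunnel opening. AT3G49910, one of its genes, had log2 signals of 12.05, 12.05 and 12.19 in ceh1, against 11.85, 11.79 and 11.55 in the parent line. All ceh1 arrays were above all parent arrays, with parent array 3 lowest. The difference was 0.37 ± 0.14 (adjusted p of 0.192), and its paralog AT5G67510 had 0.29 (adjusted p of 0.364), also with separate arrays. In the deposited intensities, without normalization, both genes overlapped. There ceh1 array 1 lay below parent array 1, at 3679 against 4588 in AT3G49910 and 712.7 against 922.7 in AT5G67510.

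L4 reaches into the tunnel at its narrowest point, and mutants of both its genes are known for altered leaf shape and auxin responses. AT5G02870 had log2 signals of 11.19, 10.95 and 11.44 in ceh1, against 10.85, 10.78 and 10.94 in the parent line. AT3G09630 had 10.44, 10.33 and 10.41 in ceh1, against 10.20, 10.26 and 10.10 in the parent line. In neither gene did the genotypes overlap, though the gap was narrow in both, and parent array 3 was the highest parent array for the first and the lowest for the second. The differences were 0.33 ± 0.17 (adjusted p of 0.303) and 0.21 ± 0.14 (adjusted p of 0.441), and after median scaling they were 0.15 and 0.04.

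L17, whose loop lines the tunnel, had differences of 0.31 for AT1G27400, with separate arrays, and 0.12 for AT1G67430. L19, near the tunnel rim, had 0.23 for AT3G16780 and 0.18 for AT4G02230, the second with separate arrays. The 4 genes of L35, which borders the exit, ran between nearly 0 in AT3G09500, with means of 10.82 in ceh1 and 10.83 in the parent line, and 0.40 in AT5G02610. AT5G02610 had log2 signals of 9.37, 9.09 and 9.49 in ceh1, against 9.15, 8.60 and 8.99 in the parent line, where ceh1 array 2 lay below parent array 1 (adjusted p of 0.317), and its difference was 0.24 without parent array 2.

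L31 also borders the tunnel exit and has 3 tested genes. AT2G19740 had log2 signals of 8.89, 8.65 and 8.47 in ceh1, against 8.40, 8.53 and 7.90 in the parent line. Parent array 3 was far below the rest and parent array 2 lay above ceh1 array 3, so the genotypes overlapped. The difference of 0.39 ± 0.22 (adjusted p of 0.362) was 0.20 without parent array 3. Its paralogs had 0.20 (AT4G26230) and -0.07 (AT5G56710).

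The highest difference of the list, 0.43, belonged to a gene for L27, a protein of the 60S body. AT3G22230 had log2 signals of 10.15, 10.19 and 10.15 in ceh1, against 10.06, 9.64 and 9.49 in the parent line. The 3 ceh1 arrays were close together and all above the parent arrays, of which array 1 was nearest. The adjusted p was 0.234, and the difference was 0.31 without parent array 3. The paralogs AT2G32220 and AT4G15000 had 0.14 and -0.07, with overlapping arrays.

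L7, another protein of the 60S body, had 2 of the 6 highest genes. AT2G44120 had log2 signals of 10.27, 10.07 and 10.21 in ceh1, against 9.92, 9.88 and 9.49 in the parent line (difference of 0.42 ± 0.17, adjusted p of 0.223). AT1G80750 had 7.47, 7.73 and 7.52 in ceh1, against 7.25, 7.10 and 7.19 in the parent line (difference of 0.40 ± 0.16, adjusted p of 0.216). The genotypes did not overlap in either gene, and leaving out parent array 3 lowered the first to 0.28 and left the second at 0.41. The other L7 genes, AT2G01250 and AT3G13580, had 0.12 and 0.00.

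The stalk that recruits elongation factors was represented by 12 tested genes, 7 of them above 0, against 46.7% of all probe sets. P0 anchors the stalk, P1 and P2 form its arms and P3 is an additional arm protein of plants. The median difference of the 12 genes was 0.20. The ceh1 arrays all exceeded the parent arrays in 1 of them, the P2 gene AT2G27720, against 12.4% of all probe sets. The sign of the median did not hold: it was -0.00 without parent array 3 and -0.02 after median scaling. By array, the centred medians were 0.17, -0.15 and 0.10 in ceh1, against 0.08, 0.05 and -0.33 in the parent line, so ceh1 array 2 was below parent arrays 1 and 2.

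**Figure D3:**
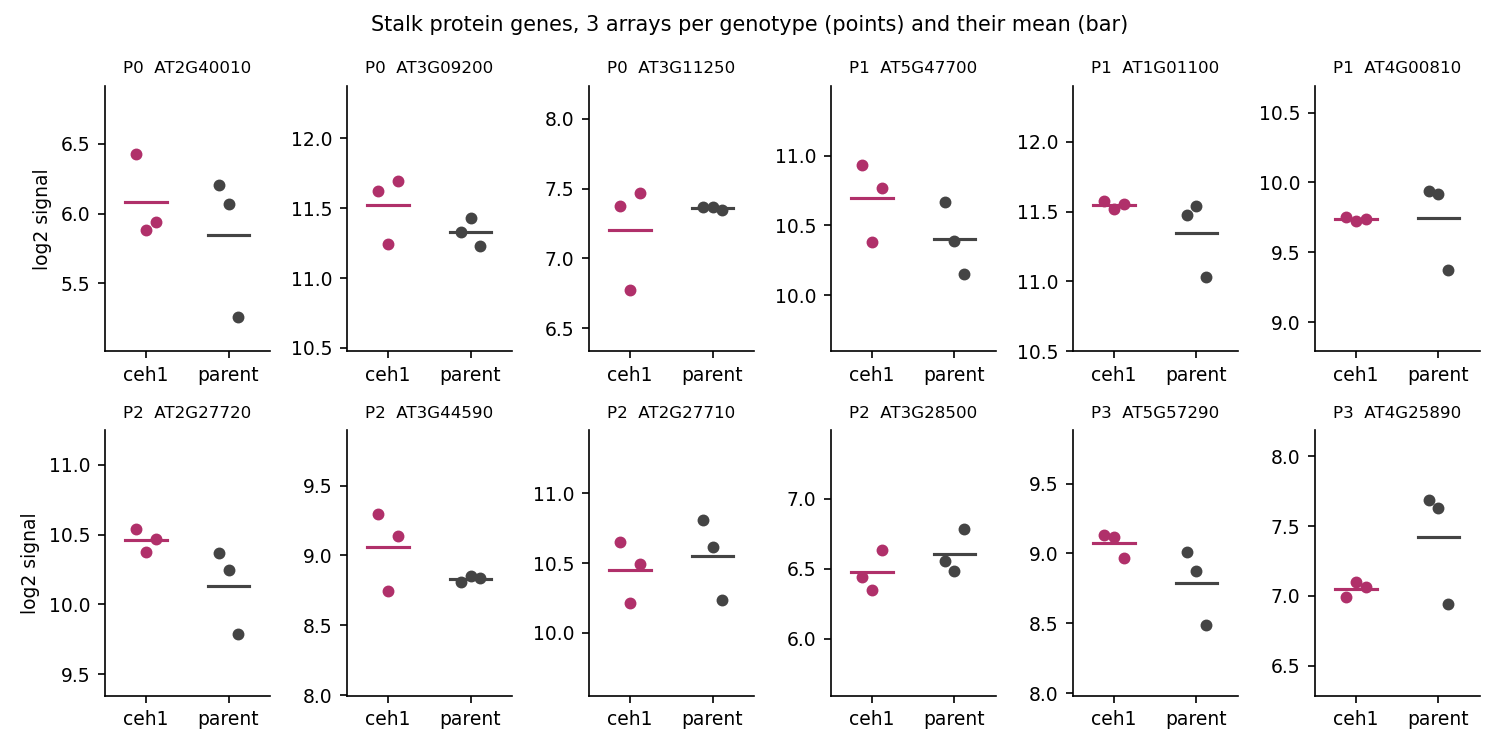
Log2 signal of the 12 stalk protein genes (vertical axes, each spanning 1.9 log2 units) in 3 ceh1 and 3 parent arrays (points, in array order), with group means as bars. The third parent point is the lowest parent value in 10 of the 12 panels, and the P3 gene AT4G25890 shows parent arrays at 7.69 and 7.63 and one beside the ceh1 arrays at 6.94.

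P0 had 3 tested genes. AT3G09200 had log2 signals of 11.62, 11.25 and 11.70 in ceh1, against 11.33, 11.43 and 11.23 in the parent line, with ceh1 array 2 among the parent values. AT3G11250 had 7.37, 6.78 and 7.47 in ceh1, against 7.37, 7.37 and 7.35 in the parent line, where ceh1 array 2 alone was low. Their differences were 0.19 and -0.16, and AT2G40010 had 0.24 with a standard error of 0.30. Signs turned in all of them: AT3G09200 had -0.05 after median scaling, AT3G11250 had 0.06 without ceh1 array 2, and AT2G40010 had -0.06 without parent array 3. The adjusted p of the P0 genes lay at 0.558, 0.736 and 0.704.

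P1 had differences of 0.29 (AT5G47700), 0.20 (AT1G01100) and -0.00 (AT4G00810). AT5G47700 had 0.16 without parent array 3 and 0.13 after median scaling. In AT1G01100 the ceh1 arrays read 11.57, 11.52 and 11.56, against 11.48, 11.54 and 11.03 in the parent line. Only parent array 3 was low there, and the difference was 0.04 without it. AT4G00810 had the narrowest ceh1 spread of the stalk, with 9.75, 9.73 and 9.74, against 9.94, 9.91 and 9.37 in the parent line. Its ceh1 arrays fell between parent array 3 and the other parent arrays.

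P2 had 4 tested genes, at 0.33 (AT2G27720), 0.22 (AT3G44590), -0.10 (AT2G27710) and -0.13 (AT3G28500). AT2G27720 had log2 signals of 10.54, 10.38 and 10.47 in ceh1, against 10.37, 10.25 and 9.79 in the parent line, separate by a narrow gap and with parent array 3 far below (adjusted p of 0.372). Its difference was 0.16 without parent array 3 and 0.18 after median scaling. Its neighbour on chromosome 2, AT2G27710, had 10.65, 10.21 and 10.49 in ceh1, against 10.81, 10.61 and 10.23 in the parent line (adjusted p of 0.826). The genotypes overlapped throughout in this second gene, which was highest in parent array 1.

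P3 had the widest gap between paralogs of any family, 0.65. AT5G57290 had log2 signals of 9.13, 9.12 and 8.97 in ceh1, against 9.01, 8.87 and 8.49 in the parent line, a difference of 0.28 ± 0.18 (adjusted p of 0.435) that was 0.13 without parent array 3. AT4G25890 had 6.996, 7.10 and 7.06 in ceh1, against 7.69, 7.63 and 6.94 in the parent line, a difference of -0.37 ± 0.23 (adjusted p of 0.413). Parent arrays 1 and 2 stood above every ceh1 array in AT4G25890, and parent array 3 below. The difference of AT4G25890 without parent array 3 was -0.61, with an adjusted p of 0.101, and with ceh1 array 2 left out too the adjusted p was 0.0733.

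L12 forms the base of the stalk on the ribosomal RNA. Its genes had differences of 0.30 (AT2G37190), 0.27 (AT3G53430) and -0.06 (AT5G60670). AT2G37190 had log2 signals of 11.15, 10.96 and 11.02 in ceh1, against 10.82, 10.81 and 10.59 in the parent line. All ceh1 arrays were above the parent arrays (adjusted p of 0.286).

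On the small subunit, the ceh1 arrays all exceeded the parent arrays in 2 of 43 genes (4.65%) after quantile normalization, against 12.4% of all probe sets. Both code for proteins along the path of the messenger RNA, a grouping made after the values were seen. S2 lies where the message enters, and S14 where it leaves. The S2 gene AT2G41840 had log2 signals of 11.08, 11.03 and 11.07 in ceh1, against 10.75, 10.78 and 10.53 in the parent line. It was the only 40S gene with an unadjusted p under 0.05, at a difference of 0.38 ± 0.14 (adjusted p of 0.183). The S14 gene AT3G52580 had 9.43, 9.47 and 9.57 in ceh1, against 9.39, 9.28 and 9.12 in the parent line, a difference of 0.23 (adjusted p of 0.445) with a narrow gap between the genotypes. In the deposited intensities, without normalization, both genes overlapped. There ceh1 array 1 lay below parent array 1, at 1801 against 2072 in AT2G41840 and 602 against 781.2 in AT3G52580.

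Other genes for proteins near this path had overlapping arrays. At the entry, the second S2 gene, AT3G57490, had a difference of 0.10, S3 had 0.04 (AT5G35530) and S9 had 0.15 (AT5G15200) and 0.03 (AT5G39850). Towards the exit, the S14 genes AT3G11510 and AT2G36160 had 0.19 and -0.01, S26 had 0.16 (AT3G56340), and S3a had 0.14 (AT4G34670) and 0.06 (AT3G04840). S28 and S30, also near the path, were measured only by probe sets that several genes share.

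The lowest difference of the list, -0.37, was that of AT4G34555, a gene for S25, which in yeast and mammals is needed for translation from internal entry sites. Its log2 signals were 6.82, 6.09 and 6.59 in ceh1, against 6.85, 6.90 and 6.87 in the parent line. All ceh1 arrays were below the parent arrays, array 1 by very little and array 2 by the most, and the difference had an adjusted p of 0.376 (limma). It was -0.17 without ceh1 array 2 and -0.12 without normalization. It was the only gene of the list separated in this direction. Its paralogs had 0.19 (AT4G39200), 0.09 (AT2G21580) and 0.00 (AT2G16360), the second at -0.11 without parent array 3.

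Genes for the same protein often differed in sign. Of 56 families with a tested gene, 41 had 2 or more: in 21 all genes were above 0, in 20 the signs were mixed and in 0 were all below 0. Some of the 20 were mixed only through a value near 0, such as P1 (lowest gene at -0.0039) and S4 (-0.0065). The median range within a family was 0.20, close to the median standard error of a single difference, 0.18. No paralog pair was tested against each other, and how far a probe set also binds transcripts of a close paralog was not tested.

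**Figure D4:**
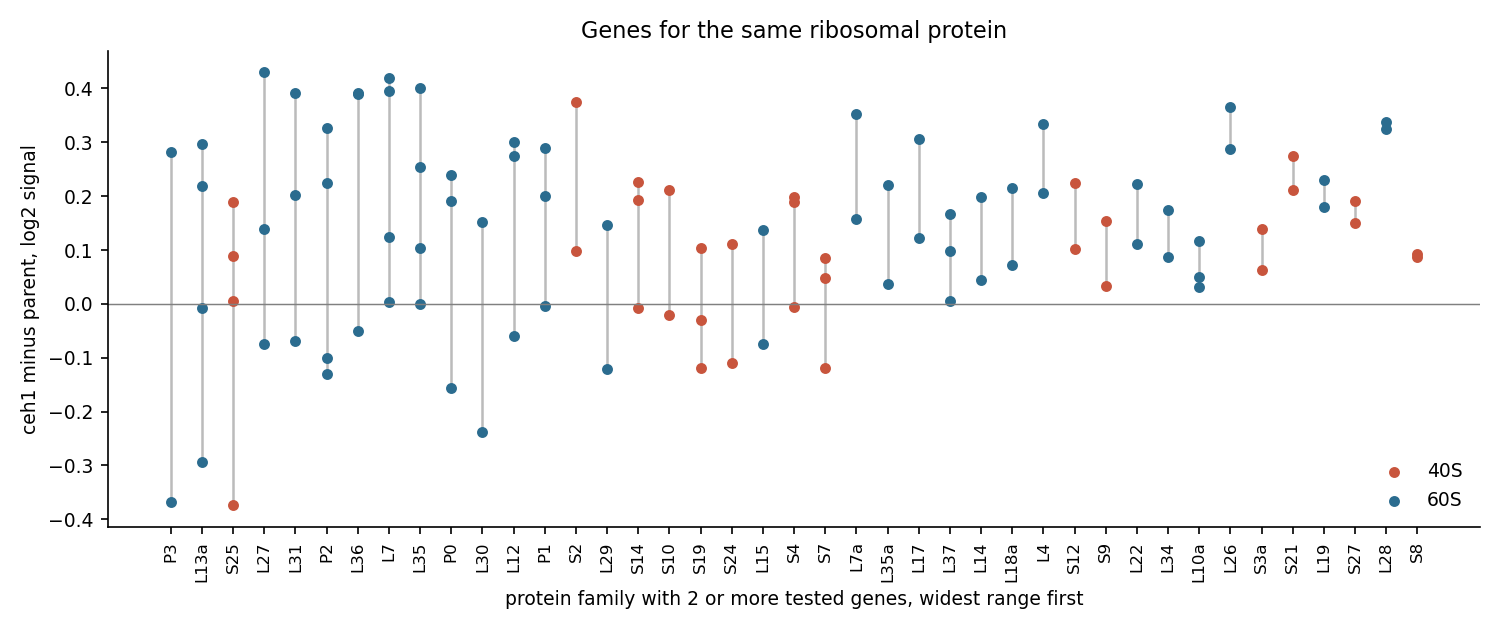
Difference between ceh1 and parent means (log2 signal, vertical axis) of each tested gene in the 41 families with 2 or more tested genes (horizontal axis), ordered by the range within the family and coloured by subunit. P3, L13a, S25 and L27 have the widest ranges (0.65, 0.59, 0.56 and 0.50), while both genes of L28 and of S8 lie on almost the same value.

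L13a, which in mammals leaves the ribosome to repress certain messages, had the second widest range. AT4G13170 had log2 signals of 9.34, 8.18 and 8.91 in ceh1, against 9.25, 9.15 and 8.92 in the parent line. It was the gene with the third lowest difference, -0.29 ± 0.29 (adjusted p of 0.630), and ceh1 array 2 alone was far below the parent arrays. Without that array the difference was 0.02. AT3G24830 had 11.06, 11.32 and 11.31 in ceh1, against 11.05, 10.89 and 10.86 in the parent line, a difference of 0.30 with separate arrays by a small gap (adjusted p of 0.294), which was 0.08 after median scaling. The other L13a genes had 0.22 (AT3G07110) and -0.01 (AT5G48760).

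L30, which in yeast binds its own transcript, had 0.15 in AT1G77940 and -0.24 in AT1G36240. AT1G36240 was among the dimmest genes tested, with log2 signals of 3.70, 3.81 and 3.89 in ceh1, against 3.76, 3.88 and 4.47 in the parent line. Parent array 3 alone was high, and the difference was -0.02 without it.

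At the other end, both genes of L28 had nearly the same difference. AT4G29410 had log2 signals of 9.76, 9.76 and 9.76 in ceh1, against 9.55, 9.55 and 9.16 in the parent line, and AT2G19730 had 11.38, 10.94 and 11.26 in ceh1, against 10.94, 11.08 and 10.59 in the parent line. The first had separate arrays and a difference of 0.34 (adjusted p of 0.298), and the second overlapped at 0.32 (adjusted p of 0.382). AT2G19730 lies directly beside the L31 gene AT2G19740 described above. Together with the pair of P2 genes, these were the 2 pairs of neighbouring ribosomal protein genes among those tested.

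Genes of other 60S proteins with separate arrays after quantile normalization were AT5G02450 for L36 (0.39), AT5G27850 for L18 (0.33), AT1G74270 for L35a (0.22) and AT2G34480 for L18a (0.21). AT5G02450 had log2 signals of 10.10, 10.30 and 10.10 in ceh1, against 9.99, 9.80 and 9.54 in the parent line. All had adjusted p values between 0.247 and 0.470. In the deposited intensities, without normalization, all of them overlapped, with ceh1 array 1 below parent array 1 (938.8 against 1211 in AT5G02450). The second L36 gene, AT3G53740, had a like difference of 0.39 with overlapping arrays, and the third, AT2G37600, had -0.05.

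Of 19 ribosomal protein genes with a known developmental mutant or a part in growth signalling, 3 were tested, both L4 genes among them. The third was PGY1 (AT2G27530), a gene for L10a at the edge of the 60S subunit, whose mutants are known for altered leaf polarity. Its log2 signals were 10.20, 10.36 and 10.33 in ceh1, against 10.37, 10.30 and 9.87 in the parent line. Arrays 2 and 3 of ceh1 lay between parent arrays 1 and 2, ceh1 array 1 lay below both, and all ceh1 arrays were above parent array 3. The difference of 0.12 ± 0.18 (adjusted p of 0.760) was -0.04 without parent array 3 and -0.03 after median scaling.

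The 13 genes below the filter were 5 for 40S proteins, of which 4 were S15 genes, and 8 for 60S proteins. Their mean log2 signals lay between 1.55 (AT5G09490) and 3.72 (AT3G51190), under the limit of 3.80. The dimmest gene above the limit was the S25 gene AT2G16360, with a mean of 3.81 in ceh1 and 3.80 in the parent line. Without the filter, 0 of the 132 genes were called by limma, where 2.3% of all probe sets were, and 6 had an unadjusted p under 0.05.

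Probe sets shared by several ribosomal protein genes, which the rule on names set aside, gave a separate view of 46 further genes. There were 25 of them, and 0 were called (limma), against 3.77% of all probe sets. An unadjusted p under 0.05 was seen in 2, against 20.9%, and 20 lay above 0, against 46.7%. The median difference of the 25 was 0.22. The ceh1 arrays were all above the parent arrays in 5, against 12.4% of all probe sets, and all below in 0, against 15.1%. Here the 40S median, 0.23, was above the 60S median, 0.18, the opposite order to that of the genes with a probe set of their own. Across arrays the centred medians were 0.12, -0.04 and 0.21 in ceh1, against 0.05, -0.02 and -0.32 in the parent line, again with ceh1 array 2 and parent array 3 low. The median was 0.06 without parent array 3 and 0.04 after median scaling.

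The highest shared probe set was one for S29, a small 40S protein, common to AT4G33865, AT3G44010 and AT3G43980. It had log2 signals of 11.66, 11.49 and 11.50 in ceh1, against 11.30, 11.10 and 10.94 in the parent line. All ceh1 arrays exceeded all parent arrays, and the difference was 0.43 ± 0.15 (adjusted p of 0.156). A second probe set for the same 3 genes read 11.57, 11.29 and 11.62 in ceh1, against 11.49, 11.36 and 10.93 in the parent line. There the genotypes overlapped and the difference was 0.23 (adjusted p of 0.538).

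Other genes of the translation machinery were taken from lists, of which only a part had a probe set of their own. These were 10 of 41 plastid ribosomal proteins, 10 of 20 mitochondrial ones, 11 of 54 initiation and elongation factors and 13 of 37 assembly factors. Plastid ribosomal proteins, which work in the chloroplast on a separate ribosome, had 10 tested genes and a median difference of -0.32. In 9 of the 10 all ceh1 arrays were below all parent arrays, against 15.1% of all probe sets. An unadjusted p under 0.05 (limma) was seen in 4, against 20.9% of all probe sets, and 0 were called. The centred medians of the plastid list were -0.11, -0.19 and -0.17 in ceh1, against 0.10, 0.16 and 0.22 in the parent line. The genotypes did not overlap, and parent array 3 was the highest. The medians were -0.54 after median scaling, -0.27 without normalization and -0.28 without parent array 3.

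The lowest of the plastid genes, AT4G17560, had log2 signals of 9.15, 8.76 and 8.98 in ceh1, against 9.63, 9.78 and 9.74 in the parent line. The difference of -0.75 ± 0.16 missed the threshold narrowly (adjusted p of 0.0526, limma). The highest, AT5G24490, had 0.21 with ceh1 array 2 apart from the rest at 12.53. No test compared the plastid list with the cytosolic one.

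**Figure D5:**
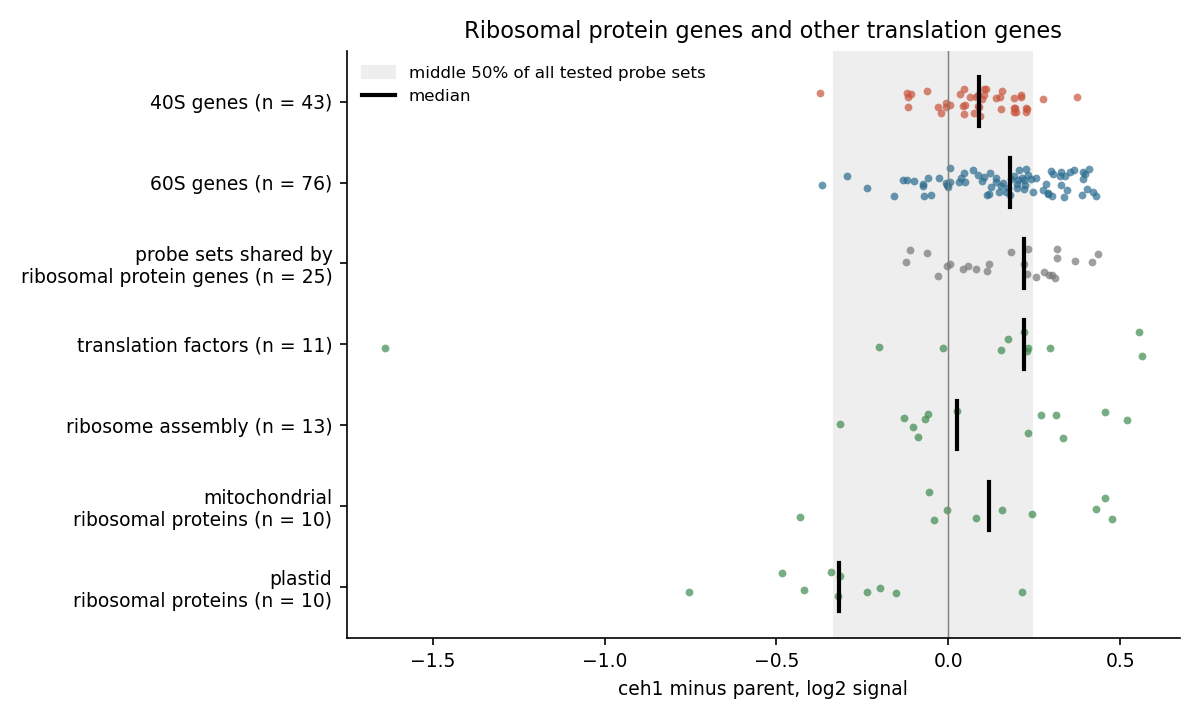
Difference between ceh1 and parent means (log2 signal, horizontal axis) of the tested 40S and 60S genes, the probe sets shared between ribosomal protein genes and 4 other lists (rows), with medians as bars and the middle 50% of all tested probe sets in grey. The cytosolic genes crowd between -0.37 and 0.43, 9 of 10 plastid ribosomal protein genes lie below 0, and translation factors reach from -1.64 to 0.56.

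Mitochondrial ribosomal proteins had 10 tested genes, a median of 0.12 and 6 genes above 0, against 46.7% of all probe sets. In 2 of the 10 all ceh1 arrays were above the parent arrays, against 12.4% of all probe sets. The mitochondrial genes ran between -0.43 (AT3G18880) and 0.48 (AT4G36420). Initiation and elongation factors had 11 tested genes, a median of 0.22 and 8 genes above 0, against the same 46.7%. Their extremes were wider than those of the ribosomal proteins. AT5G12110 had log2 signals of 7.01, 4.87 and 6.05 in ceh1, against 7.89, 7.77 and 7.19 in the parent line, a difference of -1.64 ± 0.50 with separate arrays and ceh1 array 2 far below (adjusted p of 0.126). AT1G77840 had 7.93, 7.87 and 7.86 in ceh1, against 7.37, 7.40 and 7.20 in the parent line, a difference of 0.56 ± 0.15, also separate (adjusted p of 0.0934).

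Ribosome assembly factors, which process ribosomal RNA and build the subunits in the nucleolus, had 13 tested genes and a median of 0.02. Of the 13 factors, 7 were above 0, against 46.7% of all probe sets. The assembly factors ran between -0.31 (AT3G15460) and 0.52 (AT5G15550). The subunits of RNA polymerase I, which transcribes the large ribosomal RNAs, had differences of 0.58 (NRPA2) and 0.19 (NRPA1), and both overlapped. Of 12 genes of energy signalling and of TOR, the second of which is known to drive ribosomal protein synthesis, 2 were tested. RAPTOR1 had -0.04 and RAPTOR2 had -1.07 ± 0.38 (adjusted p of 0.169), with all ceh1 arrays below the parent arrays. None of the genes in these lists was called by limma.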

How the data were processed

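The authors deposited 1 intensity per probe set on a linear scale, made with MAS5 per the submitters' processing notes; neither its settings nor its version are given in the sources at hand. Of 22810 probe sets, 64 control probe sets were set aside, and 13513 of the remaining 22746 were paired with 1 gene, 503 with several and 8730 with none in the platform annotation. No coordinates or sequences are printed, since no genome build or sequence table was at hand, and the TAIR10.1 gene table served for names and gene order only. Computed here were log2(intensity + 2), quantile normalization, a filter at the 30th percentile of the mean (log2 3.80; 15922 probe sets kept and tested, with or without a gene name) and a two-sided limma 3.58.1 fit in R 4.3.3 (Benjamini-Hochberg adjustment, threshold 0.05; lmFit, then eBayes with a trend in the variance). Fold changes on this scale understate those of dim probe sets. Each ribosomal protein gene with a probe set of its own had 1. The fit was tested on simulated data. Depth does not apply to arrays, and their number, 3 per genotype, limits the precision.

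The members and lists were chosen with earlier results of these data known. Protein families follow TAIR locus names from general knowledge. Named were the 6 highest and 6 lowest members, all stalk genes, the 4 families with the widest range, tested members of a list of 19 genes with known phenotypes, and the extremes of each other list; further genes, and the groups by place on the ribosome, were chosen after their values were seen. Array measures were compared by an exact permutation test. Alternatives were pseudocounts of 1 and 8, no filter or the 50th percentile, no normalization, median scaling, other variance models, array weights, a replicate block, averaging the probe sets of a gene, plain probe sets only, and each array left out. Leaving out both ceh1 array 2 and parent array 3 was chosen after seeing the data.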

Additional observations from a re-analysis of the deposited data

How the results depend on the processing

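No ribosomal protein gene was called by limma under any of the 19 alternatives, with a lowest adjusted p of 0.0733, where 0.955% to 11.4% of all probe sets were. Over 7 summary results, 121 of 133 alternative values moved less than the spread between arrays or by less than 1.5 times, 12 moved more and 0 reversed. Some of the 121 could not move, so the tally is no measure of stability. Other variance models and the block leave medians and array separation as they were, and each gene had 1 probe set to average. The fall of the median difference from 0.14 to 0.02 after median scaling counts among the 121. The count of genes whose ceh1 arrays all exceeded the parent arrays, 20 (16.8%, against 12.4% of all probe sets), was 2 without normalization (1.69%, against 12.8%) and 5 after median scaling (4.2%, against 11.1%). With 1 array left out it was 22 to 48 (48 or 40% without ceh1 array 2, against 16.6%; 36 or 30.3% without parent array 1, against 15.3%; 22 or 18.5% without parent array 3, against 20%), and with ceh1 array 2 and parent array 3 both left out 51 (42.9%, against 26%). Without normalization the median difference was 0.29 for all genes and 0.28 for 40S genes, and after median scaling it was 0.0287 for 60S genes. With 1 array left out the median of all genes was 0.06 to 0.21, the low value without parent array 3. The 40S median minus the 60S median was -0.013 without normalization, -0.0183 after median scaling, and -0.1019 to -0.0355 with 1 array left out (-0.041 without ceh1 array 1, -0.0355 without ceh1 array 3). Of 32 named genes, 13 had the other sign in at least 1 setting. Probe sets called over the whole array numbered 600, against 384 with the stricter filter, 1815 with array weights, 955 with both arrays left out and 152 to 676 with 1 array left out. With the replicate number as a block, 1160 were called over the whole array, and 0 ribosomal protein genes, with a lowest adjusted p of 0.175. Same-numbered arrays correlated in their deviations at 0.273, 0.057 and 0.473, not all above 0.1, and ceh1 array 1 correlated best with parent array 2 (0.337), so the numbers were not taken to pair the samples. Few arrays and intervals reaching a median of 0.42 to either side limit what can be said of differences of this size, and the cause of the shifts with scaling was not tested.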
